A study of Mus musculus with 2 samples.

Results

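The genes described here were the mouse major histocompatibility complex (MHC) genes whose names begin with H2- on chromosome 17, together with 8 genes that act with their products, *Ciita*, *B2m*, *Tap1*, *Tap2*, *Tapbp*, *Psmb8*, *Psmb9* and *Cd74*. The rule gave 43 genes (35 H2- genes and the 8 added ones) of 22605 genes in the table, each taken as the row with the most windows. DNase I hypersensitive site sequencing (DHS-seq), which reads out where chromatin is open to DNase I, was performed on untreated M1 cells (1 library) and on M1 cells given interleukin-6 (IL-6) for 4 to 5 days (1 library). M1 cells, a line from a mouse myeloid leukemia, differentiate toward macrophages under IL-6, and both cultures were grown in horse serum without further agents named in the labels. Both libraries thus come from 1 cell line, and the labels name no allele or transgene.

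Class I molecules, a polymorphic heavy chain paired with beta-2 microglobulin, show peptides from inside the cell to cytotoxic T cells. The peptides are cut by the immunoproteasome, carried into the endoplasmic reticulum by the TAP transporter and loaded with the help of tapasin. Class II molecules, an alpha and a beta chain, show peptides from taken-up material to helper T cells, with the invariant chain as chaperone, H2-DM as peptide editor and H2-O as its inhibitor. CIITA is the coactivator on which class II transcription depends, and class I, beta-2 microglobulin and class II promoters share an upstream module that includes a Y box (CCAAT) bound by NF-Y and an X2 element related to the cAMP response element.

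By class, 2 of the 43 genes were classical class I, 22 nonclassical class I, 4 classical class II, 5 nonclassical class II and 8 the added genes, here called the machinery. The other 2, *H2-Ke2* and *H2-Ke6*, carry H2- names by position and do not present antigen. Each level is the mean number of reads per 700-bp window over all windows touched by the coding part of a transcript, so levels can be compared between genes per length. IL-6 levels carry the scaling of the table, in which 1 read of the treated library counts as 1.04. Over non-overlapping coding spans the libraries held 9102320 (untreated) and 8544903 (IL-6-treated) reads, or 7.58 and 7.12 reads per window. Ratios are IL-6-treated over untreated, and their 95% Clopper-Pearson intervals cover counting error between these libraries only. With 1 library per condition there was no replicate check and no test between conditions.

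Of the 43 members, 39 had more than 21 reads in at least 1 library and entered the counts below. The 4 that did not were *H2-Q7*, *H2-T22*, *H2-T9* and *H2-M11*. The 7 myeloid progenitor marker genes all had more than 21 reads, with a median level of 14.1 in untreated cells, beside 26.2 for 7 macrophage, 12.9 for 3 dendritic cell, 9.32 for 4 B cell, 8.74 for 4 T cell, 5.88 for 3 fibroblast and 4.83 for 3 erythroid marker genes, and 7.75 for all genes. The ranges overlapped, from 4.10 to 51.5 for the progenitor genes up to 129 for the macrophage and up to 51.6 for the erythroid ones. After IL-6, 5 of 7 progenitor and 5 of 7 macrophage marker genes were lower (median log2 ratios -0.49 and -0.82), as were 0 of 4 B cell and 1 of 4 T cell genes. Of the other lists, 2 of 3 dendritic cell, 2 of 2 counted erythroid and 0 of 3 fibroblast genes were lower. Among all genes with more than 21 reads, 48.3% were lower. The part of cell composition in the results below was not tested. Fewer open cells and less open chromatin per cell cannot be told apart in bulk libraries. Signal over a coding span does not show by itself that a gene is transcribed.

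Promoters are shown for the genes on which the results turn, each from 250 bases before to 50 after the RefSeq start (GRCm38.p6), 5′ to 3′ on the strand of the gene. All 36 member promoters found in RefSeq had 1 exact match in NCBIM37 (mm9), the build of the table, and coordinates below are of that build. Capitals mark every match, on either strand, to CCAAT (Y box), TGACG (core of the X2 or cAMP response element), GAAANNGAA or GAANNGAAA (cores of the interferon-stimulated response element, ISRE), TTCNNNGAA (gamma-activated site) and GGGNNTTCC (NF-kB site), and neighboring matches may overlap. Those of the classical class I genes lie at chr17:34137229-34137528 (*H2-K1*, minus strand) and chr17:35399789-35400088 (*H2-D1*, plus strand), and all 300 bases of both fell in measured windows.
H2-K1: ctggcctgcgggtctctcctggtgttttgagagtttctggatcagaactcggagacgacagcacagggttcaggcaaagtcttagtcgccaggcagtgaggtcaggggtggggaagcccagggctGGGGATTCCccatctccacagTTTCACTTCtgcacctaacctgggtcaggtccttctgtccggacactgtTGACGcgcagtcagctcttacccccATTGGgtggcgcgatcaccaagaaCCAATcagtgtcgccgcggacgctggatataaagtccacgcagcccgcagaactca
H2-D1: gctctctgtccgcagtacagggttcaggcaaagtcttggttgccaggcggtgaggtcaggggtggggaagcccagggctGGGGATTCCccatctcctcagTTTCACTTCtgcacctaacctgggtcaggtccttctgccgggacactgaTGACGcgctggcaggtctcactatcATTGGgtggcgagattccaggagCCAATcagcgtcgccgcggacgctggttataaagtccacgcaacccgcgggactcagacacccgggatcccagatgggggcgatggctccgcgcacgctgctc
Both hold the same series of matches in the same order. Counted from the start (position 0) to the leftmost base of the match, the NF-kB match of *H2-D1* is at -171, the ISRE core at -150, TGACG at -101 and the more upstream Y box at -76. In *H2-K1* the same matches are at -125, -104, -55 and -30, each nearer to the annotated start.

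The promoters of *B2m* (chr2:121973173-121973472, plus strand) and of *H2-M3* (chr17:37406929-37407228, plus strand) are shown because these were among the members with the lowest ratios, and both were measured over all 300 bases.
B2m: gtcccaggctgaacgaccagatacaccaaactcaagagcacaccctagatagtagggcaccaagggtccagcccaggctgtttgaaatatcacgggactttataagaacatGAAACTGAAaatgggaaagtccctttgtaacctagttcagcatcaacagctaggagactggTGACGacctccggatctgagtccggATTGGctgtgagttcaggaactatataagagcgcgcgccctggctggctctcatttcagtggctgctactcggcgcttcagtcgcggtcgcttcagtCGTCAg
H2-M3: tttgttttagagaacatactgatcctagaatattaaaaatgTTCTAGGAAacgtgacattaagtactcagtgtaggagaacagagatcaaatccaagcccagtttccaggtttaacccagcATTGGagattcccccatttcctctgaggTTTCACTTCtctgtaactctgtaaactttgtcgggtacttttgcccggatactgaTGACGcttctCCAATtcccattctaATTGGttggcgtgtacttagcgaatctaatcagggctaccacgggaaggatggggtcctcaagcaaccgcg
*B2m* has GAAANNGAA at -139, TGACG at -78 and a Y box at -53. *H2-M3* has a gamma-activated site match at -209 and 3 Y boxes, the most upstream at -129, with GAANNGAAA at -101 and TGACG at -46.

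The promoter of *H2-Aa* (chr17:34424719-34425018, minus strand) is shown because it lies in only 1 of the 2 spans listed for this class II gene, which differ in direction as described below. That of *H2-T3* (chr17:36327047-36327346, minus strand, 154 of 300 bases measured) belongs to the strongest gene with a higher level after IL-6. The promoter of *Psmb9* (chr17:34324226-34324525, minus strand, 275 bases measured) overlaps that of *Tap1*, which is read from the opposite strand.
H2-Aa: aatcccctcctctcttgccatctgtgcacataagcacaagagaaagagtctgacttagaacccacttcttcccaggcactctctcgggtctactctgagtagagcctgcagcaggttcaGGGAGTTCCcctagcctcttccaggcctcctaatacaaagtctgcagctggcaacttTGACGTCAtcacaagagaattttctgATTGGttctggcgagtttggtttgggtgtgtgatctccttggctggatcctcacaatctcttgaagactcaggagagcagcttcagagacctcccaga
H2-T3: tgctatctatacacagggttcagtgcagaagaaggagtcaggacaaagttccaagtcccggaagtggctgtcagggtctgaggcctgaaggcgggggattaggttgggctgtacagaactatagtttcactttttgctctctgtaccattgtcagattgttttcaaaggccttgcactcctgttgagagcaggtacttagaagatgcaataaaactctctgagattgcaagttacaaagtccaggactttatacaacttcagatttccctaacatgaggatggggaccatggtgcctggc
Psmb9: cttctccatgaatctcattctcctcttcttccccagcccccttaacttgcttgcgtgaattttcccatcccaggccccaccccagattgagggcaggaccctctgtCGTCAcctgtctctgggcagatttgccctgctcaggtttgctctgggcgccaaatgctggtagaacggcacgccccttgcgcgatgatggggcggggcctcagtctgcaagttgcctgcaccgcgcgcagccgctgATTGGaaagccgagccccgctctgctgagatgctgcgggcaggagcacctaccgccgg
*H2-Aa* has an NF-kB match at -131, TGACG at -74 and a Y box at -48, and *H2-T3* has none of the 6 motifs in this window.

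Over the 36 member promoters a Y box was found in 31 (86.1%), against 37.4% of the 32851 RefSeq promoters of the same length. TGACG was found in 15 (41.7%, against 20.8%). The NF-kB match was found in 8 (22.2%, against 5.82%), namely *H2-K1*, *H2-D1*, *H2-Q4*, *H2-Q6*, *H2-Q7*, *H2-M2*, *H2-Aa* and *H2-Oa*. GAANNGAAA was also found in 8 (22.2%, against 7.52%), and 6 promoters, all of class I genes, held both. GAAANNGAA, in 3 (8.3%, against 8.56%), and TTCNNNGAA, in 4 (11.1%, against 8.3%), were near their shares among all promoters. Many of these promoters are copies of one another, so the counts are not independent.

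Classical class I genes, which code for the heavy chains of the main presenting molecules, had high levels in untreated cells and lower ones after IL-6. *H2-K1* had 122 reads over 6 windows in untreated and 54 in treated cells, a level of 20.3 and 9.34 (ratio 0.460, 95% interval 0.327 to 0.638). *H2-D1* had 307 and 116 reads over 6 windows, a level of 51.2 and 20.1 (ratio 0.392, interval 0.314 to 0.487). In untreated cells *H2-D1* thus stood higher than 95.9% of all genes. Most of its reads lay at the promoter end, where the 4 windows that hold the promoter above had 280 and 88 reads, and the other 2 windows 27 and 28. Under a scaling set on strong single windows, which multiplies the treated reads of every gene by 3.20, both genes were higher after IL-6 (log2 ratios 0.51 for *H2-K1* and 0.28 for *H2-D1*, in place of -1.11 and -1.35).

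The machinery genes were lower after IL-6 in 8 of 8 cases, against 48.3% of the 18472 genes tested, and at least 2-fold lower in 5, against 13.4% of genes. Under the strong-window scaling, which raises all genes alike, 1 of the 8 was lower, and the class median log2 ratio was 0.48 in place of -1.14. *B2m*, the light chain of class I, had 301 reads in untreated and 102 in treated cells over 7 windows, a level of 43.0 and 15.1 (ratio 0.352, interval 0.278 to 0.442). *Tap2*, a subunit of the peptide transporter, had the highest level in untreated cells among the rows used. It had 944 reads over 16 windows (59.0) against 286 in treated cells (18.6, ratio 0.315, interval 0.275 to 0.359). *Tap1*, the partner subunit, had 306 and 184 reads over 14 windows (ratio 0.624, interval 0.517 to 0.752). The intervals of the transporter subunits do not overlap. *Tapbp*, which codes for tapasin, had 493 and 161 reads over 13 windows (ratio 0.339, interval 0.282 to 0.406). Another row of *Tapbp*, over 8 windows that include its promoter, had 828 and 211 reads. The level of that row was 103.5 and 27.4 (ratio 0.265, interval 0.226 to 0.308), above that of *Tap2* in both libraries. The 3 windows at chr17:34054301-34056400, which hold part of the promoter, had 131 and 56 of its reads. The level of the row therefore does not stand for the promoter alone.

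The immunoproteasome subunits and the invariant chain went the same way. *Psmb8* had 138 and 71 reads over 5 windows (ratio 0.534, interval 0.395 to 0.716). *Psmb9* had 237 and 107 reads over 8 windows (ratio 0.469, interval 0.370 to 0.591). The 2 windows nearest its start, at the promoter shared with *Tap1*, held 177 of the 237 reads and 58 of the 107, while the span of *Tap1* begins just beyond them and leaves most of that promoter out. *Cd74*, which codes for the invariant chain of class II, had 580 and 243 reads over 13 windows, a level of 44.6 and 19.4 (ratio 0.435, interval 0.373 to 0.506).

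*Ciita* was the exception to the size of the machinery ratios. It had 761 reads in untreated and 681 in treated cells over 66 windows, a level of 11.5 and 10.7 (ratio 0.929, interval 0.837 to 1.03, which includes 1). The value over the gene covers unlike parts. The 12 windows furthest upstream had 123 and 124 reads and the next 44 windows 452 and 452. The 10 windows that follow toward the 3′ end had 186 and 105 reads (ratio 0.586), with a lower bound of 0.457.

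**Figure D1:**
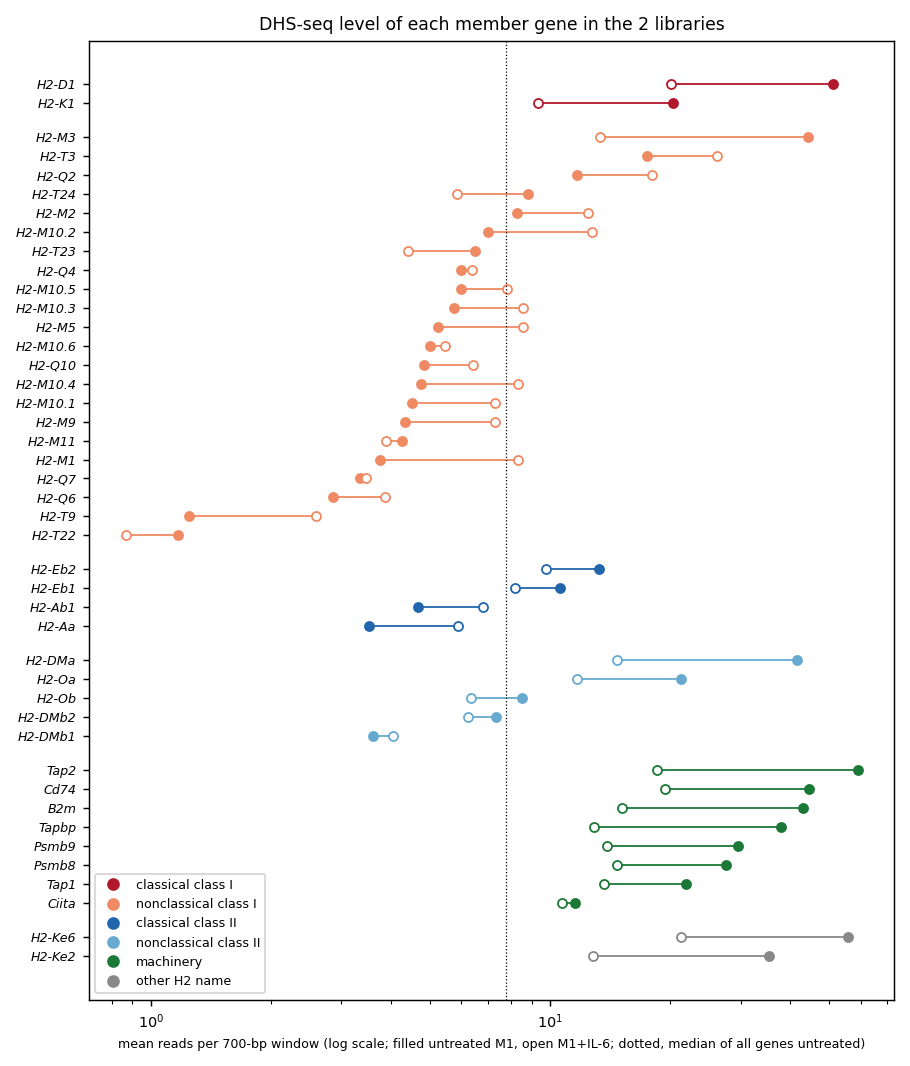
Mean reads per 700-bp window (log axis) of each of the 43 members, filled for untreated and open for IL-6-treated M1 cells, grouped by class and ordered by untreated level. The machinery and the classical class I genes lie to the right of the all-gene median of 7.75 (dotted), while most nonclassical class I genes lie to its left and move to the right after IL-6.

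Nonclassical class I genes, a large group of copies with mostly specialized or unknown ligands, had low levels and mostly higher ones after IL-6. Of 22 genes, 18 were counted, and 15 were higher and 3 lower (16.7%, against 48.3% of all genes). Weak genes were mostly higher in general, with 36.3% lower at a level summed over both libraries of 10 to 20 and 21.4% below 10. *H2-M1*, *H2-M5*, *H2-M10.1*, *H2-M10.4*, *H2-M10.6* and *H2-Q6* were counted only through their treated reads, and *H2-T23* only through its untreated reads. Without the filter 5 were lower, the added ones being *H2-T22* and *H2-M11*. The part of level and of the filter was not tested. At least 1.5-fold higher were 8 of the 18, against 10.8% of all genes, and 1 was at least 2-fold higher, against 1.71%. That gene was *H2-M1*, with 15 and 32 reads over 4 windows (ratio 2.22, interval 1.17 to 4.40). The intervals of 5 genes lay above 1 and those of 2 below, and the remaining 11 included 1. Of all 18472 genes tested, 5355 had intervals above 1 and 6350 below, so 5 of 18 was near the share of all genes.

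The strongest genes of this class split. *H2-M3*, which presents N-formylated peptides, had 265 reads in untreated and 77 in treated cells over 6 windows, a level of 44.2 and 13.3. Its ratio of 0.302 (interval 0.231 to 0.390) was the lowest among the rows used for the 39 counted members. *H2-T3*, the thymus leukemia antigen, had 105 and 151 reads over 6 windows, a level of 17.5 and 26.1 (ratio 1.49, interval 1.16 to 1.93). Its level in treated cells was the highest among the rows used. The row used for *H2-Q2*, at chr17:35457507-35461131, had 70 and 104 reads over 6 windows, a level of 11.7 and 18.0 (ratio 1.54, interval 1.13 to 2.12). A second locus of that name, at chr17:35479278-35482651, had 34 and 53 reads over 6 windows, a level of 5.67 and 9.17 (ratio 1.62, interval 1.03 to 2.57). The RefSeq promoter of *H2-Q2*, at chr17:35479002-35479301, lies at this second locus, so the stronger row may not stand for the RefSeq gene. The 2 windows of *H2-T3* nearest its start had 45 and 73 reads.

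Of the weaker genes, *H2-T23*, which codes for Qa-1, the ligand of inhibitory NK cell receptors, had 26 and 17 reads over 4 windows (ratio 0.679, interval 0.346 to 1.30). *H2-T24* had 185 and 118 reads over 21 windows (ratio 0.662, interval 0.521 to 0.839). The lowest levels in untreated cells were those of *H2-T22* (7 and 5 reads over 6 windows), *H2-T9* (5 and 10 over 4) and *H2-Q6* (20 and 26 over 7). At this depth these 3 genes give no direction, since each interval includes 1. The 10 genes named H2-M1, M5, M9, M10 or M11 lie near the far end of the complex. Of the 9 counted, 0 were lower, against 48.3% of all genes and 36.3% of those with a summed level of 10 to 20, where all 9 fell. Their median log2 ratio was 0.69, beside 0.03 for all genes and 0.17 for those of that level. *H2-M11*, the gene not counted, was lower (17 and 15 reads, log2 ratio -0.12). *H2-M1*, *H2-M5*, *H2-M10.1*, *H2-M10.4* and *H2-M10.6* had 21 reads or fewer in untreated cells and were counted only through their treated reads. The filter itself thus favored higher ratios in this block. The intervals of 3 of the 9 lay above 1, beside 5355 of 18472 for all genes. *H2-M3* and *H2-M2*, which lie beyond them, had log2 ratios of -1.72 and 0.59.

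**Figure D2:**
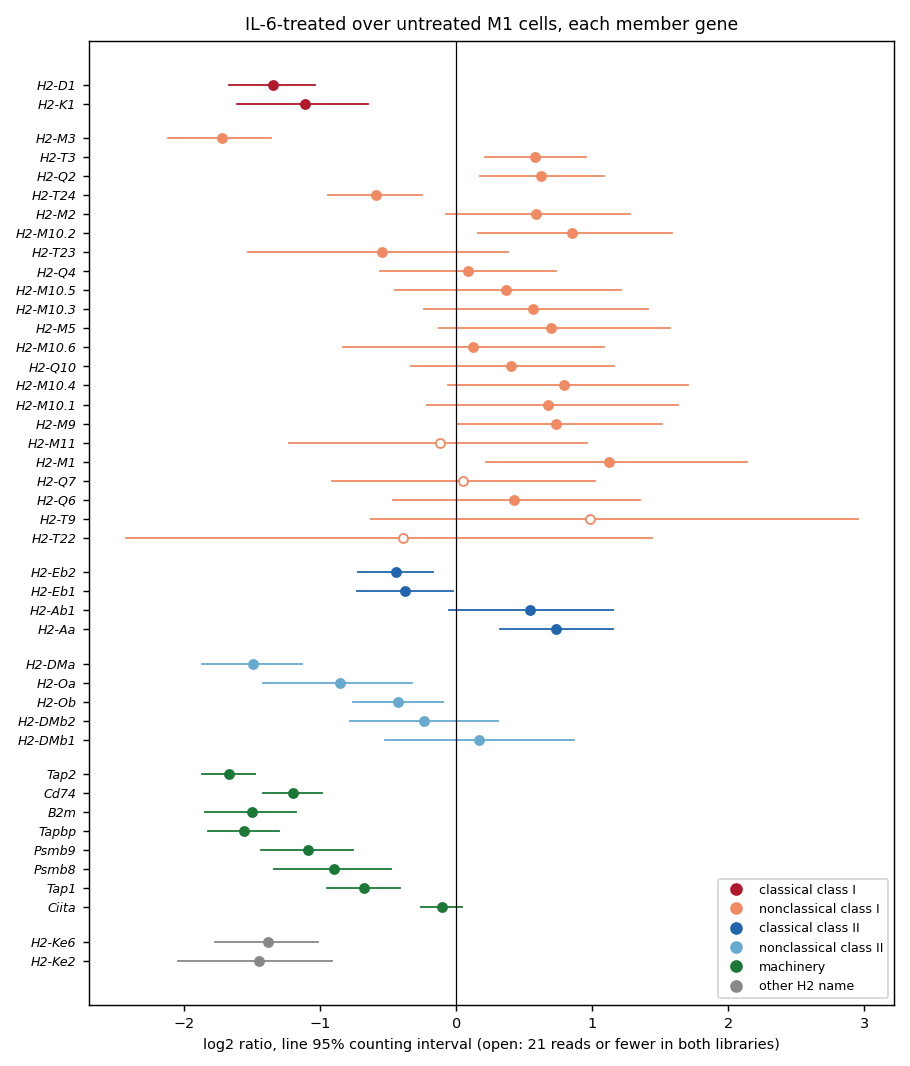
Log2 ratio of IL-6-treated over untreated M1 cells for each of the 43 members, with lines for 95% counting intervals and open points for the 4 genes with 21 reads or fewer in both libraries. Machinery, classical class I and *H2-M3* points lie left of 0, and 15 of the 18 counted nonclassical class I genes lie right of it, many with intervals that cross 0.

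Classical class II genes showed middle levels and no common direction. *H2-Ab1*, a beta chain, had 42 and 59 reads over 9 windows (ratio 1.46, interval 0.965 to 2.22). *H2-Eb1* had 159 and 118 reads over 15 windows (ratio 0.771, interval 0.602 to 0.984), and *H2-Eb2* had 266 and 188 over 20 windows (ratio 0.734, interval 0.606 to 0.888). *H2-Aa*, the alpha chain paired with *H2-Ab1*, had 81 and 130 reads over 23 windows (ratio 1.67, interval 1.25 to 2.23) in the row with the most windows, which leaves out the promoter shown above. The other row of the gene, over 8 windows that include the promoter, had 139 and 67 reads, a level of 17.4 and 8.70 (ratio 0.50, interval 0.368 to 0.675). The direction of *H2-Aa* therefore depends on which stretch stands for the gene. The rows share some windows. In untreated cells no window of the 23-window row held more than 16 reads, while the strongest of the 8-window row held 34 to 61. That strongest window thus lies outside the shared ones, and it was not placed further.

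Among the nonclassical class II genes, *H2-DMa*, a chain of the peptide editor, had 249 and 85 reads over 6 windows, a level of 41.5 and 14.7 (ratio 0.354, interval 0.274 to 0.455). Its partner chains are copies of each other. *H2-DMb1* had 36 and 39 reads over 10 windows (ratio 1.13, interval 0.697 to 1.82), and *H2-DMb2* had 66 and 54 over 9 windows (ratio 0.849, interval 0.582 to 1.24). *H2-Oa* and *H2-Ob*, the chains of H2-O, were lower, with 85 and 45 reads over 4 windows (ratio 0.550, interval 0.374 to 0.798) for *H2-Oa*. *H2-Ob* had 187 and 134 reads over 22 windows (ratio 0.744, interval 0.591 to 0.934), of which its promoter-end 3 windows had 54 and 27. Of these 5 genes 4 were lower, against 48.3% of all genes, and 1 was at least 2-fold lower, against 13.4%. With 5 genes these counts say little about the class, and under the strong-window scaling 0 of the 5 were lower. The non-presenting *H2-Ke2* (106 and 37 reads) and *H2-Ke6* (223 and 82 reads), which lie near *H2-K1*, were also at least 2-fold lower.

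By median level in untreated cells the classes stood in the order classical class I (35.8), machinery (33.8), nonclassical class II (8.50), classical class II (7.63) and nonclassical class I (5.13). Neighbors in this order had overlapping ranges, from 20.3 to 51.2 for classical class I and from 11.5 to 59.0 for the machinery. The other ranges were 3.60 to 41.5 for nonclassical class II, 3.52 to 13.3 for classical class II and 1.17 to 44.2 for nonclassical class I. In treated cells the first 2 classes had medians of 14.7 and 14.3, and nonclassical class I, at 7.27, stood between classical (7.49) and nonclassical (6.32) class II. Median log2 ratios were -1.23 for classical class I, -1.14 for the machinery, -0.43 for nonclassical class II, 0.08 for classical class II and 0.57 for nonclassical class I. For all 39 genes, 21 were lower (11 of them 2-fold or more) and 18 higher (1 of them 2-fold or more), with a median of -0.23. The share lower, 21 of 39 (53.8%), was near the 48.3% of all genes. The share lower by 2-fold or more was 28.2%, against 13.4% of all genes, and the share higher by as much 2.56%, against 1.71%. The part of level in these shares was not tested. Under the strong-window scaling 2 of the 39 were lower and 28 were higher by 2-fold or more, with a median of 1.51. This scaling adds 1.62 to the log2 ratio of every gene, members or not, and the shares of all genes under it were not counted.

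**Figure D3:**
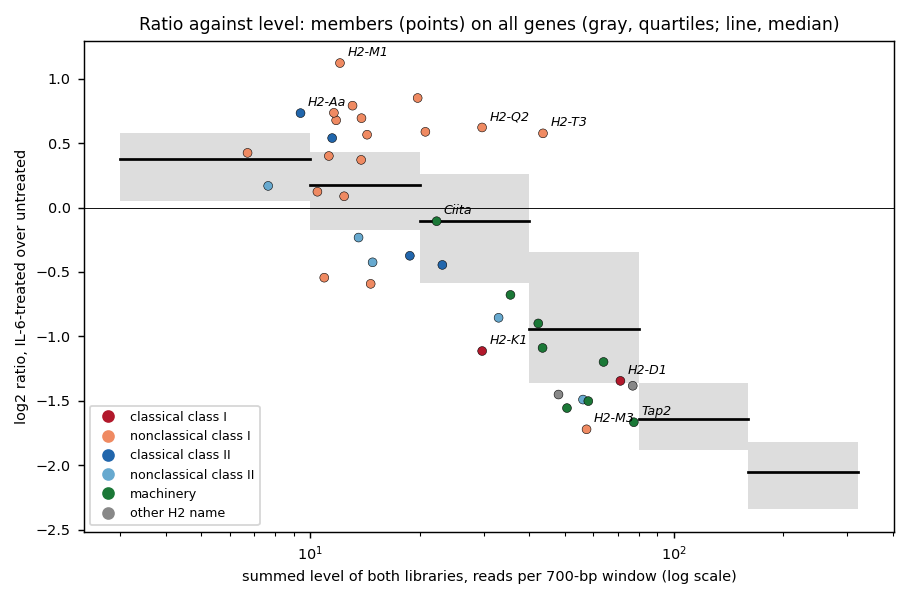
Log2 ratio against the summed level of both libraries (log axis) for the 39 counted members, over the median (line) and quartiles (gray) of all 18472 genes in bins of level. The first bin begins at 0 and is drawn only in part, and the last has no upper limit. Both the members and all genes run downward to the right, with 15 members below the quartiles of their bin and 12, among them *H2-T3* at 0.58, above them.

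Over all genes the ratio was lower where the level was higher. Among the 2016 genes with a summed level of 40 to 80 the median log2 ratio was -0.94 and 84.7% were lower. Of the 12 members in this bin 11 were lower, with a median of -1.42, and the exception was *H2-T3*. Among the 6482 genes between 10 and 20 the median was 0.17 and 36.3% were lower, beside 5 of 17 members and a median of 0.40. By definition the quartiles of a bin leave as many of all genes outside them as between them. In the bin from 0 to 10, 1 of 3 members (*H2-Aa*) lay outside. In the bin from 40 to 80, 7 of 12 members (*H2-M3*, *Tap2*, *Tapbp*, *B2m*, *H2-DMa*, *H2-Ke2* and *H2-Ke6*) lay below the lower quartile of -1.36. *H2-K1* (-1.11) lay below the lower quartile of its bin (-0.59), as did *H2-Oa* and *Tap1*. Of the 17 members between 10 and 20, 8 lay above the upper quartile, 7 of them *H2-M1*, *H2-M5*, *H2-M9* and genes named H2-M10, and 5 below the lower quartile. Of those above, *H2-M1*, *H2-M5*, *H2-M10.1* and *H2-M10.4* were counted only through their treated reads. Of those below, *H2-T23* was counted only through its untreated reads. Over all bins 15 of 39 members lay below and 12 above the quartiles of their bin. The part of level and of counting error in each ratio was not tested.

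Because the table gives a mean and a standard deviation (SD) over windows, the reads in the strongest window of a span can be bounded. In *H2-D1* it held 222 to 248 of the 307 reads in untreated cells and 48 to 63 of the 116 in treated cells. The other 5 windows together held 59 to 85 and 53 to 68 reads, a ratio between 0.647 and 1.20. In *H2-K1* the strongest window held 77 to 94 of 122 and 17 to 26 of 54 reads, a ratio of 0.188 to 0.351, and the rest 28 to 45 and 28 to 37. Most of the lower count of these genes thus sat in 1 window each. Among the 24 members that had 100 reads or more in total, the ratio of the strongest window lay below that of the rest for every allowed value in 5, *H2-K1*, *H2-D1*, *H2-Eb2*, *H2-DMa* and *Psmb9*. In *Tap2*, where the strongest window held 356 to 558 of the 944 reads, the rest was also lower, with a ratio of 0.309 to 0.627. The strongest window was taken separately in each library and need not be the same one.

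**Figure D4:**
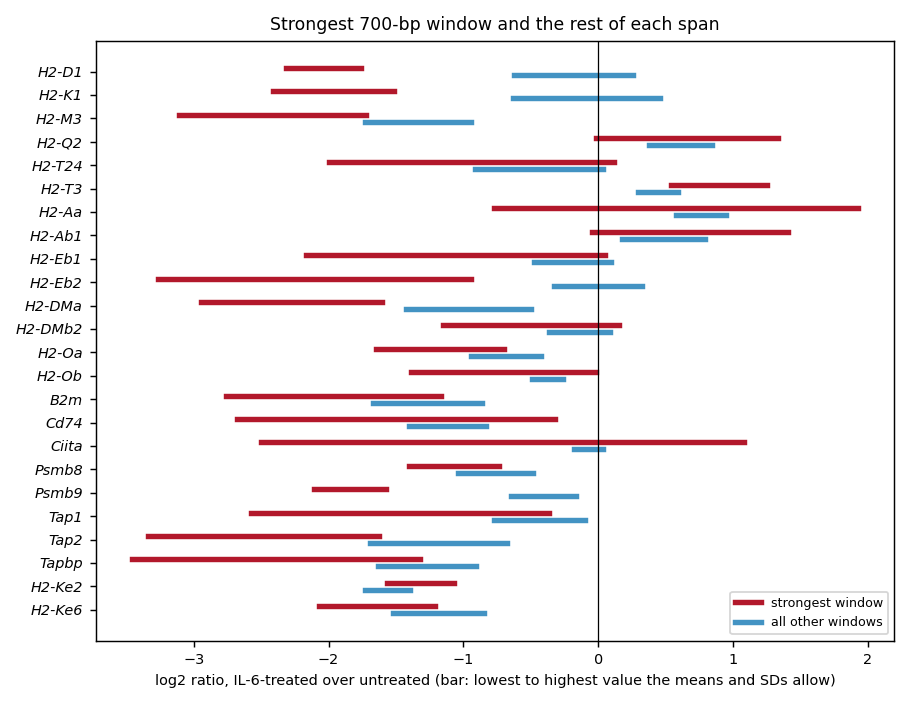
Lowest to highest log2 ratio allowed by the means and SDs, for the strongest 700-bp window (red) and for all other windows (blue) of the 24 members with at least 100 reads. In *H2-K1* and *H2-D1* the bars are apart, and the blue bar spans 0, while in *B2m* and *Tap2* both bars lie left of 0.

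Class I genes are copies of each other, and reads that match several places cannot be assigned with certainty. The handling of such reads is not given in the sources used here. In NCBIM37, 64.9% of the 32-base words of the *H2-K1* span and 67.8% of the *H2-D1* span occurred once. The share was 24.3% in *H2-Q7*, 27.7% in *H2-Q6*, 36.5% in *H2-T9* and 39.7% in *H2-T22*, which were also the 4 weakest genes. In *H2-Q6* 65.7% of words occurred 2 to 10 times, and words making up 65.4% had a second copy within the complex. In *H2-T24* 48.6% of words occurred more than 10 times. *H2-M3* (94.8%), *H2-T3* (92.5%), *H2-DMa* (100%) and the 8 machinery genes (92.6% to 97.6%) were mostly unique, and *H2-DMb1* and *H2-DMb2* (67.2% and 63.8%) were not. The low levels of *H2-M11* (99.4% unique, 17 and 15 reads) and *H2-M5* (95.4%, 21 and 33 reads) were found in unique sequence. The MHC haplotype of M1 cells is not given in the sources used here, and the part of alleles that differ from the reference was not tested.

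**Figure D5:**
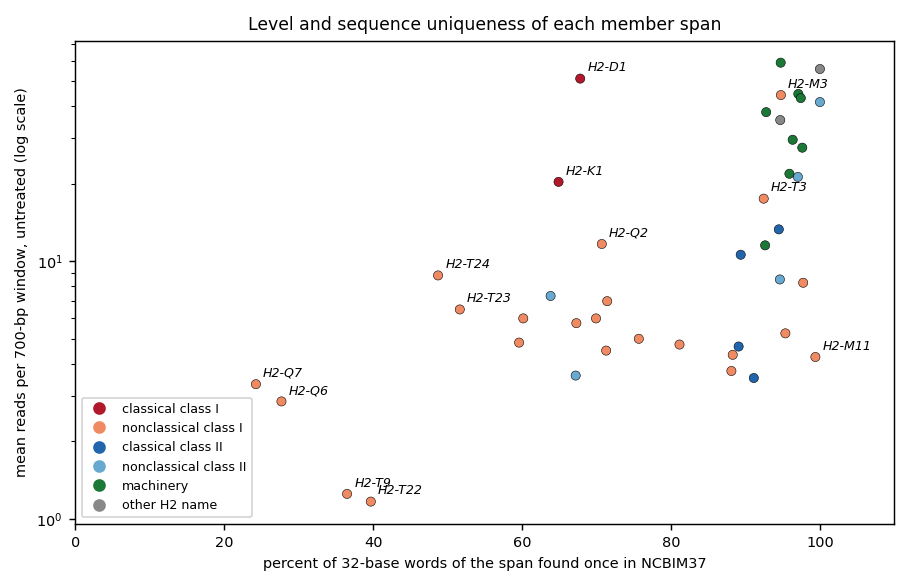
Mean reads per 700-bp window in untreated cells (log axis) against the percent of 32-base words of the span that occur once in NCBIM37, for the 43 members colored by class. *H2-Q6*, *H2-Q7*, *H2-T9* and *H2-T22* sit at the lower left, and spans with at least 80% unique words begin at the 3.52 of *H2-Aa* and reach the 59.0 of *Tap2*.

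Other genes of the pathway were lower in some cases and higher in others. Of 32 listed genes 31 had a row, *Nlrc5* being the one without. Of these, 19 were lower (61.3%, against 48.3% of all genes) and 12 higher, and the median log2 ratio was -0.38. A fall of 2-fold or more was seen in 7 (22.6%, against 13.4% of all genes). A rise of that size was seen in 1 (3.23%, against 1.71%). The part of level in these shares was not tested. The third inducible proteasome subunit, *Psmb10*, had 606 and 172 reads over 4 windows (ratio 0.295), and *Calr*, a chaperone of the class I loading complex, 1020 and 290 reads over 7 windows (ratio 0.295). Among the factors of the class II module, *Rfxap* had a level of 60.7 and 18.5 over 6 windows (ratio 0.305), *Rfx5* 118 and 112 (ratio 0.985), and *Nfyc* 215 and 301 (ratio 1.45). The gene at least 2-fold higher was *Cd1d2*, a lipid-presenting class I-like gene, with 12 and 27 reads, while its neighbor and near copy *Cd1d1* had 210 and 81.

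Between the outermost H2- genes lay 147 other gene names, of which 5 shared windows with a member row and 3 had the same windows as another name. Of the remaining 139 genes 115 were counted, and 79 were lower, against 48.3% of all genes, and 36 higher. Lower by 2-fold or more were 32 of the 115, against 13.4% of all genes, and higher by as much 1, against 1.71%. The median log2 ratio of the 115 was -0.40. The median level of the 139 genes in untreated cells was 12.3, above the 6.0 of the 35 H2- genes. Of the H2- genes, 31 were counted, of which 13 were lower (41.9%, against 48.3% of all genes) and 18 higher, with a median of 0.17. The part of level in the difference from the neighbors was not tested.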

How the data were processed

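DHS-seq libraries of untreated and IL-6-treated M1 cells (1 each) were analyzed. Per the labels and the study's methods, the authors trimmed the reads, aligned them to NCBIM37 (mm9) with BWA (version not given in the sources used here) and quantified them in Seqmonk. The deposited signal is a mean and an SD of reads over 700-bp windows for each of 55432 transcript spans, and 1 column without values was not used. Reads were recovered as mean times windows over the value of 1 read (1.00 untreated, 1.04 treated), and came out whole within 0.05 reads in 100% of rows, but with 1 library per condition no count test was run. Spans of all 43 members equaled the coding parts of GENCODE M1 transcripts, and the annotated start lay in the measured windows for 31.

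Log2 ratios used 0.5 added reads, and a gene was counted where at least 1 library exceeded 21 reads. Recovery of reads, stretches and intervals was tested on simulated data. The members and lists were chosen with earlier results of these data known. Named genes were the classical, machinery and class II genes, *H2-M3* and *H2-T23*, the 3 strongest and 3 weakest nonclassical class I genes, and the 3 highest and 3 lowest ratios among members with at least 100 reads. Others were named after their values were seen (*H2-M1*, *H2-T24*, *H2-Eb2*, *H2-Ke2*, *H2-Ke6* and pathway genes), and GAANNGAAA was added then. *Cd74* and members missing from the RefSeq table have no promoter here. Python 3.11.15, pandas 2.3.3, numpy 2.4.6 and scipy 1.17.1 were used. Alternatives were 4 other scalings, other filters, folds and added reads, other rows, and unique members alone.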

Additional observations from a re-analysis of the deposited data

How the results depend on the processing

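Directions depended most on the scaling. No scaling, total reads over coding spans and the median ratio of all genes (log2 shifts of -0.05, 0.04 and -0.03) left every class median and count within its limits. Scaling on 186 strong single windows multiplied the treated reads by 3.20 (log2 shift 1.62) and left 2 named members and 2 of all counted members lower, 1 of nonclassical class I, 0 of both class II groups and 1 of the machinery, with 0 lower by 2-fold or more and 28 higher by as much. Class medians became 1.51 (all), 0.39 (classical I), 2.19 (nonclassical I), 1.70 (classical II), 1.20 (nonclassical II) and 0.48 (machinery), and log2 ratios turned positive for *H2-K1* (0.51), *H2-D1* (0.28), *B2m* (0.12), *Tap1* (0.94), *Tapbp* (0.064), *Psmb8* (0.72), *Psmb9* (0.53), *Cd74* (0.42), *H2-Eb1* (1.25), *H2-DMa* (0.13), *H2-Oa* (0.77) and *H2-Ob* (1.20), and for *Ciita* (1.52), *H2-DMb2* (1.39), *H2-T23* (1.08) and *H2-T22* (1.23), whose intervals had included 1. *Tap2* (-0.05) and *H2-M3* (-0.10) were the 2 named members that stayed lower. The row with the fewest windows turned *H2-D1* (0.11), *Tap1* (0.13), *Psmb9* (0.88), *H2-Aa* (-0.99), *H2-Ob* (0.0059), *Ciita* (0.48) and *H2-T22* (1.64), left 5 machinery genes lower and 2 members at least 2-fold higher, and gave medians of 0.088 (all), -0.54 (classical I) and -0.45 (classical II) and levels of 18.7 (classical I) and 12.1 (classical II); by construction these rows cover fewer windows. Taking *H2-Aa* by its other row, chosen after seeing the data, gave -0.99 for it, a classical class II median of -0.41 and a level of 11.95. With 5 reads added or over 50 reads required, 0 members were at least 2-fold higher, and the latter gave a median of -0.86 over all members. A 1.5-fold limit gave 9 higher. Without the filter 5 nonclassical class I genes were lower. Mostly unique members alone (25) gave a nonclassical class II level of 21.3. For the other shifts, the cause was not tested. No paired analysis was possible because a single library stands for either condition, so none could be left out either. Depth limits the weak class I genes, where most intervals include 1.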
